A study of Mus musculus with 9 samples.

Results

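Phase II conjugation enzymes attach glutathione, glucuronic acid or sulphate to drugs, steroids, bilirubin and products of oxidation, and the products leave the cell in bile or blood. Expression was examined for 48 such genes among 19938 tested in mouse liver. They were taken by a symbol rule that uses no measured values, though the set was chosen with earlier results of these data known. The rule took every gene named Gst (classes a, m, p, t, k, o and z), Mgst, Ugt1 to Ugt3 or Sult. It required a probe set with exactly 1 symbol and left out pseudogenes. The set held 19 soluble glutathione S-transferases, 3 microsomal glutathione S-transferases, 10 UDP-glucuronosyltransferases and 16 sulphotransferases. No Ugt1 gene was among them: 17 genes of these families lay only on the 12 probe sets that carry several symbols and were not analysed here. Each gene was read from 1 probe set, the brightest where there were several, and the members of Gstm, Ugt2b and similar families are close copies whose probes may bind each other's transcripts, so values of single members are uncertain.

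Glutathione S-transferases join glutathione to reactive electrophiles, and several also reduce peroxides; the soluble classes work in cytosol, Gstk1 in mitochondria and peroxisomes, and the Mgst enzymes in membranes. UDP-glucuronosyltransferases sit in the endoplasmic reticulum and use UDP-glucuronic acid, and sulphotransferases are cytosolic and use the donor PAPS. In liver the expression of many of these genes follows the receptors PXR, CAR and AHR and the stress-response factor NRF2, and part of the daily rhythm of detoxification runs through DBP, TEF and HLF, clock-controlled transcription factors of the PAR bZIP family.

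Total liver RNA from 9 animals was measured on Affymetrix gene arrays, 1 array each, as log2 values. The groups were 3 wild-type C57BL/6J mice, 3 Clock-D19 mutants, whose CLOCK protein activates transcription poorly, and 3 rescue mice. Rescue mice were Clock-D19 mutants given 35 µg of wild-type Clock plasmid in the pLIVE vector by hydrodynamic tail vein injection in week 10, so they still carried the mutant allele. All 3 groups ate a 45% fat diet for 5 weeks from 10 weeks of age, lived in cycles of light and dark, and were killed at zeitgeber hour 10. The labels used here describe no control injection of the other groups and give no sex for the animals. The comparisons ask which conjugation genes are changed in the mutants and which of these differ again after the Clock plasmid is given. The number of arrays limits the precision. Differences below are on the log2 scale with the SE of the limma model, calls are limma with Benjamini-Hochberg adjusted p under 0.05 over all 19938 genes, and "mutant 1" and the like denote single animals by replicate number.

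As a check of the labels, Clock read 9.97, 9.24 and 9.30 in wild type, 10.88, 9.89 and 10.55 in mutants and 10.33, 9.41 and 9.62 in rescue livers. The mutant mean was higher than wild type by 0.94 ± 0.26 (adjusted p = 0.0266), with overlapping groups. Rescue differed by -0.66 ± 0.26 from mutants (adjusted p = 0.168) and by 0.28 ± 0.26 from wild type (adjusted p = 0.719). Neither was called, so the array showed no excess of Clock in rescue livers. The probe set reads the whole gene, so it does not separate mutant, endogenous and plasmid transcripts. Hepatocyte markers were bright, with a mean log2 level of 11.66 to 12.03 over 8 genes on every array. Levels without expression were gauged from 1027 olfactory receptor genes, whose 95th percentile lay between 5.74 and 6.04 on the 9 arrays. By this measure 13 conjugation genes were dim in every group mean: Gsto2, Gstt4, Mgst2, Sult1c1, Sult1e1, Sult2a3, Sult2a6, Sult2b1, Sult3a1, Sult3a2, Sult4a1, Sult6b1 and Sult6b2. By limma 0 of the 13 were called in any comparison, with 1, 2 and 0 at an unadjusted p under 0.05 for mutants against wild type, for rescue against mutants and for rescue against wild type, and the other 35 genes were above that level in at least 1 group mean.

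In Clock mutant livers, 12 of the 48 genes differed from wild type, 25% against 15.4% of all genes tested. The 5 that rose were Gstp3, Gstk1, Gstm7, Gstm6 and Gstm4 (10.4% of members, against 6.37% of all genes), all soluble glutathione S-transferases. The 7 that fell were Gsta4 and 6 glucuronosyltransferases, Ugt2b1, Ugt2b5, Ugt2b38, Ugt2b35, Ugt2b34 and Ugt2a3 (14.6%, against 9.02%). The count was 5 without mutant 1, 7 without mutant 2, and 6 without wild type 2 or without wild type 3. In the same 4 settings the shares over all genes were 10.2%, 11.7%, 12.4% and 8.5%. The split moved with the scaling of the arrays, from 5 higher and 7 lower to 3 higher and 10 lower with median centring and to 7 higher and 6 lower with quantile normalization repeated. The groups did not overlap for 22 members (45.8%, against 35.7% of all genes), and the median difference was -0.02 over the members and 0.07 over all genes.

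**Figure D1:**
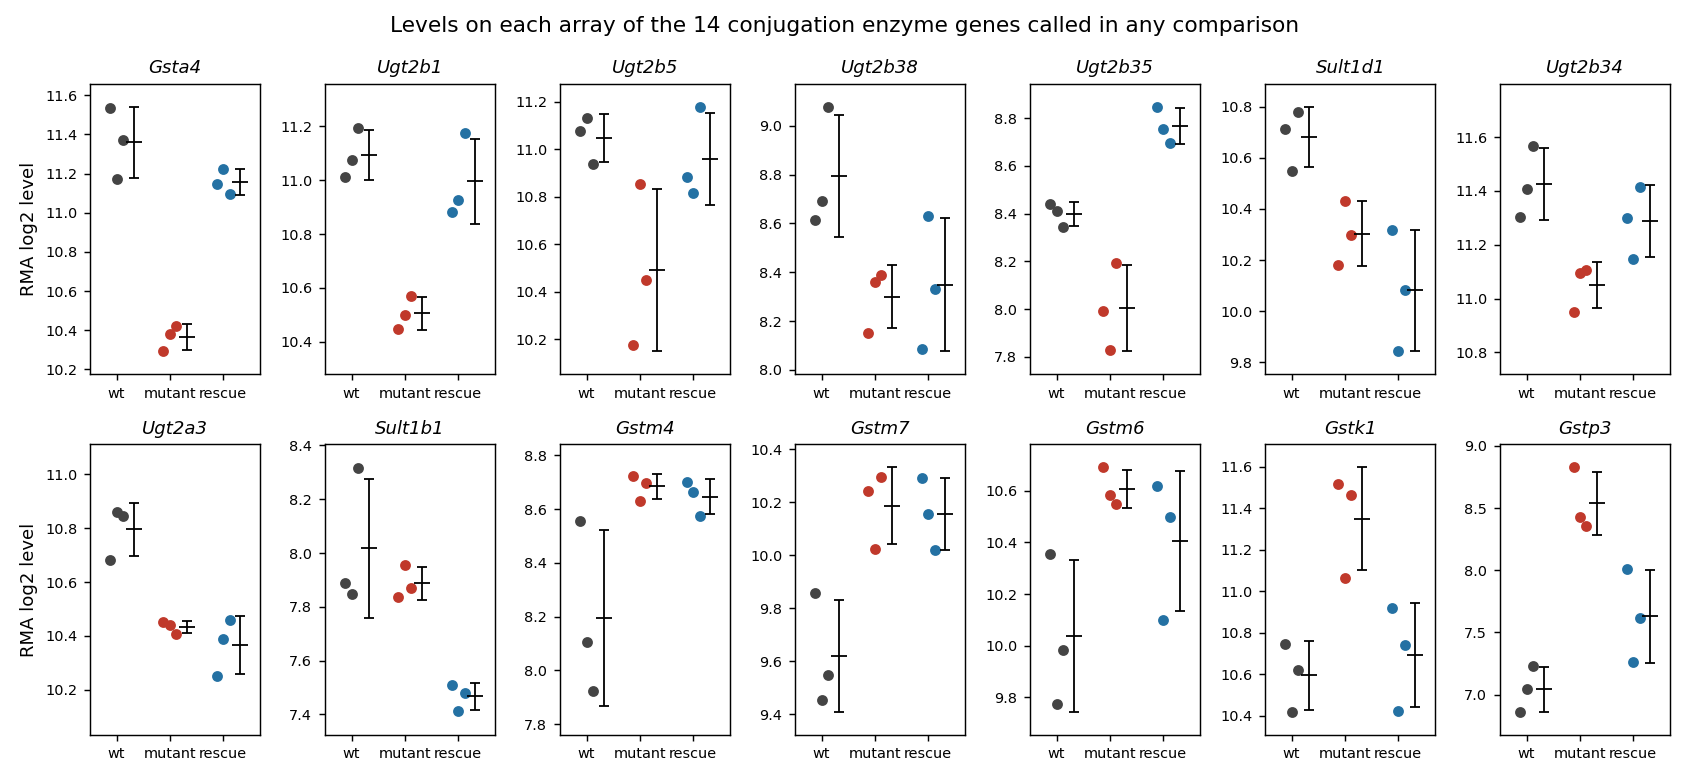
Log2 expression on each of the 9 arrays for the 14 conjugation genes called in any of the 3 comparisons, 1 panel per gene with its own axis; coloured points are animals (wt, wild type), and the black mark beside them is the group mean with its SD (n = 3). In the Gsta4 panel the mutants lie between 10.29 and 10.42 and both other groups above 11; in the Gstp3 panel the mutants lie between 8.36 and 8.83, above all other arrays.

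Gsta4, an alpha-class transferase with high activity towards 4-hydroxynonenal, a product of lipid peroxidation, had the largest fall. It read 11.54, 11.17 and 11.37 in wild type, 10.29, 10.38 and 10.42 in mutants and 11.15, 11.23 and 11.09 in rescue livers. All mutants were below all other animals, and rescue overlapped wild type. The mutant level was lower by 1.99-fold (log2 difference -0.99 ± 0.11, adjusted p = 8.08e-05), and the rescue level was above the mutant by 0.79 ± 0.11 (adjusted p = 0.00248). Both calls held under every alternative tried. Gsta3, the other alpha-class member and one that conjugates aflatoxin epoxide in mouse liver, read 11.91 to 12.07 in mutants and 12.15 to 12.19 in wild type, without overlap but with a difference of only -0.19 ± 0.10 (adjusted p = 0.221).

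Gstp3, a pi-class gene, rose most, by 2.82-fold (1.49 ± 0.17, adjusted p = 0.000118). Wild-type livers read 6.86, 7.04 and 7.23, mutants 8.83, 8.43 and 8.36, and rescue livers 8.01, 7.26 and 7.62. The rescue values lay between the other groups without touching either. The difference between rescue and mutant was -0.91 ± 0.17 (adjusted p = 0.0141) and was not called without mutant 1, rescue 2 or rescue 3 (adjusted p 0.0529 to 0.0619). Rescue stood 0.59 ± 0.17 above wild type, which was not called (adjusted p = 0.105). Gstp1, the main pi-class transferase of mouse liver, read 12.37, 11.67 and 11.39 in wild type, 12.42, 11.90 and 12.35 in mutants and 12.46, 12.33 and 12.53 in rescue livers. Its wild-type values were spread widely, so the differences of 0.41 ± 0.20 in mutants (adjusted p = 0.177) and 0.63 ± 0.20 in rescue (adjusted p = 0.134) were not called. Without wild type 1 both were called (adjusted p = 0.0123 in each).

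Gstk1, the mitochondrial and peroxisomal kappa-class enzyme, read 10.74, 10.42 and 10.62 in wild type, 11.52, 11.06 and 11.47 in mutants and 10.92, 10.42 and 10.74 in rescue livers. Mutants were above both other groups, which overlapped each other. The rise was 0.76 ± 0.15 (adjusted p = 0.00388) and held under every alternative. The difference of -0.66 ± 0.15 between rescue and mutant (adjusted p = 0.0304) was lost with median centring, with the gene span trend removed, and without mutant 1, mutant 3, rescue 2 or rescue 3 (adjusted p 0.0507 to 0.106). Gstz1, which isomerises maleylacetoacetate in tyrosine breakdown, was 0.35 ± 0.14 higher in mutants without overlap and was not called (adjusted p = 0.102). In 3 of 18 alternatives it was called (adjusted p 0.0199 to 0.0454). Gsto1, an omega-class enzyme that reduces dehydroascorbate, differed by -0.10 (adjusted p = 0.65).

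The start regions of the 4 genes that were called both in mutants and, in the opposite direction, in rescue livers and that have a RefSeq window are shown so that their letters can be read beside these values; Gsta4, the fifth such gene, had no window. Each is the 250 bases before the annotated start, read 5′ to 3′ on the gene's strand (RefSeq, GRCm38.p6): Ugt2b1 at chr5:86926504-86926753 on the minus strand, Ugt2b35 at chr5:87000610-87000859 on the plus strand, Gstp3 at chr19:4059448-4059697 on the minus strand and Gstk1 at chr6:42245685-42245934 on the plus strand. Capitals mark the only searched motifs found in them, a D-box in Ugt2b1 and a xenobiotic response element core in Gstp3.
Ugt2b1: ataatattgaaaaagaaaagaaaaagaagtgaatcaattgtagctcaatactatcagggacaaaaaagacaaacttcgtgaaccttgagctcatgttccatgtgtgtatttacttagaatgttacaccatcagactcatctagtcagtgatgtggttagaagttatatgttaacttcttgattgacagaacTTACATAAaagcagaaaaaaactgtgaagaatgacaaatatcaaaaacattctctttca
Ugt2b35: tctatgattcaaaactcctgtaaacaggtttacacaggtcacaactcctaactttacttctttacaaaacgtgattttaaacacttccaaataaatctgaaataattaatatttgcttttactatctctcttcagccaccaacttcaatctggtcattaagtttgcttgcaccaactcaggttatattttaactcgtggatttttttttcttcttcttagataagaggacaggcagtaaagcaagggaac
Gstp3: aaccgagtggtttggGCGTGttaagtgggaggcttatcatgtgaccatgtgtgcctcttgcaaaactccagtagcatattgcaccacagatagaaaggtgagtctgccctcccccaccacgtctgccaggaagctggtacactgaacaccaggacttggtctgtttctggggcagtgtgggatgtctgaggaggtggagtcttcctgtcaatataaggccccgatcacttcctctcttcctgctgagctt
Gstk1: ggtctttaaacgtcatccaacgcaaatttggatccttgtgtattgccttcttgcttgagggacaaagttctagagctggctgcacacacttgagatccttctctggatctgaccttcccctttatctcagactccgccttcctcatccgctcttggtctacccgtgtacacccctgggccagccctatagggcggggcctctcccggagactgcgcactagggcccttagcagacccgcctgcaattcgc

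The letters of regulatory motifs known from liver were searched on both strands of windows from 250 bases before to 50 after each start, of which 44 members had 56 and all genes 32851. The E-box CACGTG, bound by CLOCK-BMAL1, was in 0 member windows and in 7.15% of all. The D-box TTATGTAA, bound by DBP, TEF and HLF, was in 1 member window, that of Ugt2b1, where it reads TTACATAA on the gene strand and begins 59 bases before the start; it was in 0.938% of all windows. The spelling TTACGTAA was in 0 member windows and 0.119% of all. The core of the antioxidant response element bound by NRF2, TGACNNNGC, was in windows of 4 genes (Gsta3, Gstm5, Gstm7 and Mgst1), against 12.4% of all windows. GCGTG, the core of the element bound by AHR, was in 10 windows of 8 genes and in 32.4% of all windows; in Gstp3 it begins 235 bases before the start. In Gstm5 a GCGTG match lies inside the TGACNNNGC match. These are matches of letters and not sites of binding.

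The mu class had 7 members, 3 of which rose in mutants by about the same amount. Gstm7 read 9.86, 9.45 and 9.55 in wild type, 10.24, 10.02 and 10.29 in mutants and 10.29, 10.16 and 10.02 in rescue livers. Wild type was below both other groups, and mutant and rescue overlapped. Its rise was 0.57 ± 0.13 (adjusted p = 0.0079). Gstm6 read 10.36, 9.78 and 9.98 in wild type, 10.69, 10.58 and 10.55 in mutants and 10.62, 10.10 and 10.50 in rescue livers, with a rise of 0.57 ± 0.15 (adjusted p = 0.0227) and rescue values that overlapped both groups. Gstm4 read 8.56, 8.11 and 7.92 in wild type, 8.72, 8.63 and 8.70 in mutants and 8.70, 8.66 and 8.57 in rescue livers, with a rise of 0.49 ± 0.14 (adjusted p = 0.0272). Only the Gstm7 call held under every alternative. The Gstm6 and Gstm4 calls were both lost with median centring and without mutant 1, wild type 2 or wild type 3; Gstm6 was also lost without mutant 2 and Gstm4 without mutant 3 (adjusted p 0.0511 to 0.0904 for Gstm6 and 0.061 to 0.129 for Gstm4).

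Of the remaining mu-class genes, Gstm1, a major mu-class transferase of mouse liver, read 12.29 to 12.58 in mutants and 12.39 to 12.61 in wild type (difference -0.07, adjusted p = 0.723). Gstm3 differed by -0.05 (adjusted p = 0.865), its second probe set by -0.19 (adjusted p = 0.658), and Gstm5 by 0.05 (adjusted p = 0.831). Gstm2 had the widest spread, from 6.86 to 7.59 in wild type, 7.00 to 8.27 in mutants and 6.85 to 8.57 in rescue livers, and its difference of 0.62 ± 0.37 was not called (adjusted p = 0.271). Averaged over the 7 mu-class genes, the deviation from the wild-type mean was 0.15, -0.06 and -0.09 in the wild-type animals, 0.38, 0.19 and 0.36 in the mutants and 0.42, 0.32 and 0.16 in the rescue animals. The mean therefore lay above every wild-type animal in each mutant and each rescue animal, but only narrowly for rescue 3 (0.16, against 0.15 in wild type 1).

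By limma 0 of 4 theta and 0 of 3 microsomal genes were called in any comparison. In mutants against wild type 0 in each had an unadjusted p under 0.05. In rescue livers 1 microsomal gene, Mgst3, did so against mutants and against wild type. Gstt1, which conjugates halogenated methanes, read 8.72 to 8.91 in mutants and 8.50 to 8.65 in wild type, without overlap (0.23 ± 0.12, adjusted p = 0.189); it was called only with quantile normalization repeated (adjusted p = 0.0338). Gstt2 and Gstt3 differed by -0.14 and -0.01. Mgst1, an abundant microsomal transferase of liver, differed by 0.08 (adjusted p = 0.636). Mgst3 read 7.41, 7.27 and 6.89 in wild type, 7.38, 7.19 and 7.27 in mutants and 7.03, 6.60 and 6.88 in rescue livers, all rescue values being below all mutant ones (-0.44 ± 0.14, adjusted p = 0.0945).

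All 8 members of Ugt2 were lower in mutants without overlap with wild type, where 35.7% of all genes did not overlap in either direction, and 6 of the 8 fell by the test, against 9.02% of all genes. These enzymes glucuronidate steroids, bile acids and many drugs. Ugt2b1 read 11.01, 11.08 and 11.19 in wild type, 10.45, 10.50 and 10.57 in mutants and 10.88, 10.93 and 11.18 in rescue livers. Mutants were below both other groups, which overlapped. It fell by 0.59 on the log2 scale (SE 0.11, adjusted p = 0.00245), a call that held under every alternative. Ugt2b5 read 11.08, 11.13 and 10.94 in wild type, 10.17, 10.85 and 10.45 in mutants and 10.88, 10.82 and 11.18 in rescue livers. Its difference between mutants and wild type was -0.56 ± 0.15 (adjusted p = 0.0253). Mutant 2 was close to wild type and lay above rescue 2, so mutants and rescue overlapped. Ugt2b34 read 11.30, 11.41 and 11.57 in wild type, 10.95, 11.09 and 11.10 in mutants and 11.30, 11.15 and 11.42 in rescue livers (-0.38 ± 0.11, adjusted p = 0.034). Its mutants were the lowest of the 9 animals.

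Ugt2b35 fell in mutants by 0.39 (SE 0.11, adjusted p = 0.027) and had its highest values in rescue livers. It read 8.44, 8.41 and 8.34 in wild type, 7.99, 7.83 and 8.19 in mutants and 8.85, 8.76 and 8.70 in rescue livers, so the 3 groups did not overlap, but the excess of rescue over wild type was not called (0.37 ± 0.11, adjusted p = 0.108). Ugt2b38 read 8.61, 8.69 and 9.08 in wild type, 8.15, 8.36 and 8.39 in mutants and 8.09, 8.63 and 8.33 in rescue livers (-0.50 ± 0.15, adjusted p = 0.0383). Ugt2a3 read 10.68, 10.86 and 10.84 in wild type, 10.45, 10.44 and 10.41 in mutants and 10.25, 10.39 and 10.46 in rescue livers (-0.36 ± 0.10, adjusted p = 0.0269). For both genes the rescue mean was nearer to the mutant mean than to the wild-type mean, and the rescue values of Ugt2b38 overlapped both groups. The 2 members without a call were Ugt2b36, with a difference of -0.31 ± 0.10 (adjusted p = 0.0546), and Ugt2b37, at 6.65, 6.67 and 6.66 in wild type, 5.99, 6.28 and 6.58 in mutants and 6.26, 6.32 and 6.45 in rescue livers (-0.37 ± 0.13, adjusted p = 0.0705). Ugt2b36 was called in 4 of the 18 alternatives and Ugt2b37 in 6, among them the fit with a replicate block (adjusted p = 0.0457).

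The called Ugt2 falls other than that of Ugt2b1 were each lost when any 1 of several arrays was left out. In the fits without the call the differences stayed negative. They were -0.54 to -0.40 for Ugt2b5, -0.42 to -0.31 for Ugt2b35, -0.40 to -0.31 for Ugt2b34, -0.37 to -0.28 for Ugt2a3 and -0.55 to -0.35 for Ugt2b38. Calls were lost without mutant 1, mutant 3, wild type 1 or wild type 2 for Ugt2b5 (adjusted p 0.0653 to 0.108), without mutant 1, mutant 2 or any wild type for Ugt2b35 (0.0555 to 0.0949), and without any mutant, wild type 2 or wild type 3 for Ugt2b34 (0.0548 to 0.141). Ugt2a3 was lost without the same 5 animals as Ugt2b34 and with quantile normalization repeated (0.0524 to 0.0957), and Ugt2b38 in these 6 settings and without rescue 3 (0.0529 to 0.171). Averaged over the 8 genes, the deviation from the wild-type mean was -0.56, -0.39 and -0.34 in the mutants, against -0.05 to 0.05 in wild type; the rescue animals had -0.21, -0.16 and -0.08. The family mean in each rescue animal thus lay above every mutant and below every wild-type animal, narrowly so for rescue 3 (-0.08, against -0.05 in wild type 1). The mean pools unlike members, whose differences between rescue and mutant ran from -0.07 for Ugt2a3 to 0.76 for Ugt2b35.

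**Figure D2:**
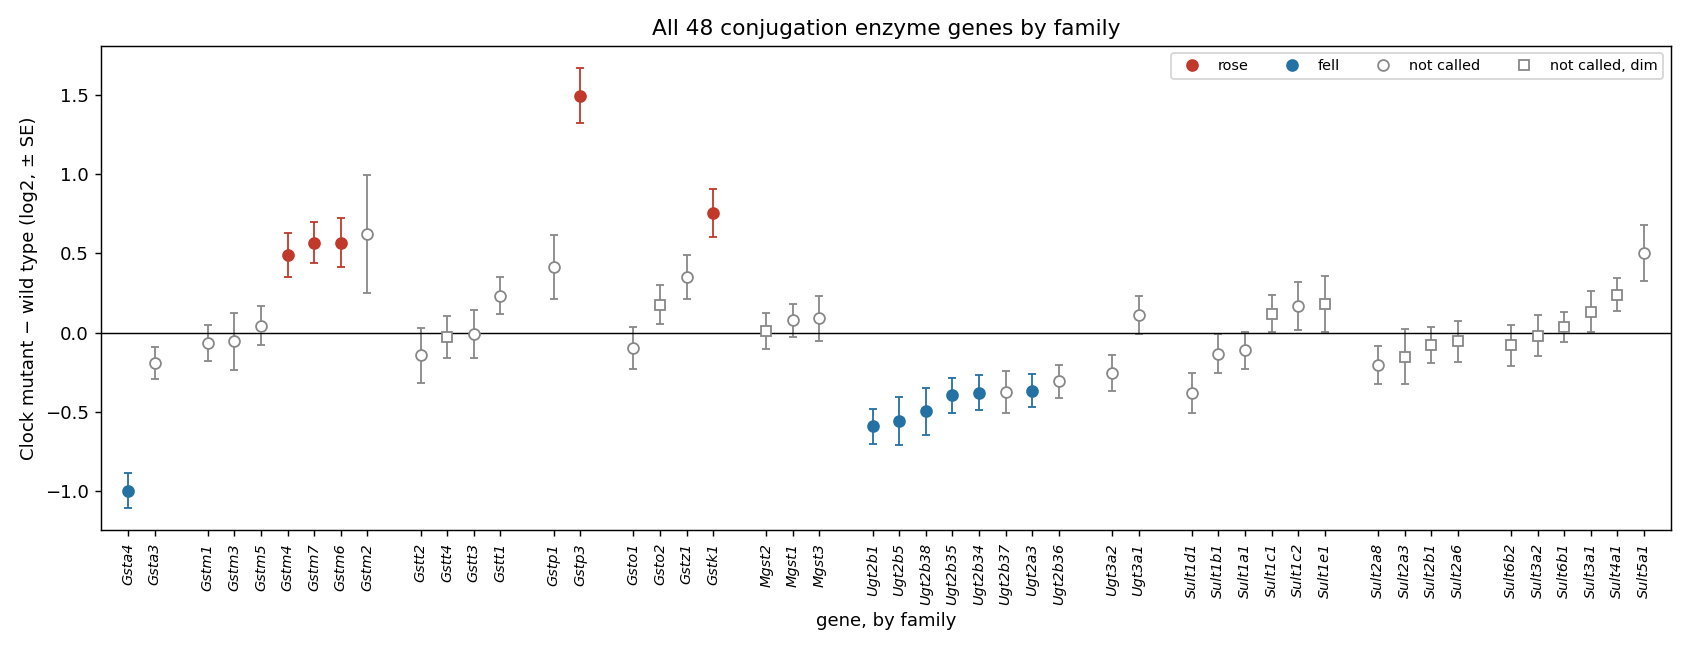
Difference between Clock mutant and wild type (log2, with SE) for all 48 conjugation genes, ordered by family; filled red points rose and filled blue points fell (limma, adjusted p under 0.05), open points were not called, and squares are dim genes. All 8 Ugt2 points lie below 0, between -0.59 and -0.31, and Gstp3 lies highest at 1.49.

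Ugt2b37 and Ugt2b38 show how close some members are, since their start regions differ at few bases. The windows are chr5:87254789-87255038 and chr5:87424204-87424453, both on the minus strand (RefSeq, GRCm38.p6), and capitals mark bases not matched in the other gene; 225 of 250 bases matched, the rest including overhangs at the ends where the annotated starts are offset.
Ugt2b37: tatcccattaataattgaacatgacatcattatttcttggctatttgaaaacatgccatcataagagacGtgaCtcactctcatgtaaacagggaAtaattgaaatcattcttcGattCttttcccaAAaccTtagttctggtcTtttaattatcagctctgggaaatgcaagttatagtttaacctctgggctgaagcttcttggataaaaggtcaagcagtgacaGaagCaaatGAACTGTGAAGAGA
Ugt2b38: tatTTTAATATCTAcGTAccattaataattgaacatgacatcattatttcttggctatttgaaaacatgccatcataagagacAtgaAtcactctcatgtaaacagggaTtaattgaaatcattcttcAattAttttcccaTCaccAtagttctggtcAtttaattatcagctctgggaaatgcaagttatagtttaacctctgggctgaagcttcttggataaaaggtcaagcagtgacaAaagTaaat

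Over the 28 pairs of the 8 Ugt2 members the whole windows were 48.4 to 87.3% identical, with Ugt2b37 and Ugt2b38 at the top, followed by Ugt2b5 with Ugt2b38 at 84.2% and Ugt2b5 with Ugt2b37 at 76.5%. The difference between mutants and wild type was -0.37 for Ugt2b37, -0.50 for Ugt2b38 and -0.56 for Ugt2b5. Between rescue and mutant livers the differences were 0.47 ± 0.15 for Ugt2b5 (adjusted p = 0.102), 0.06 for Ugt2b37 and 0.05 for Ugt2b38, none of them called, and the genes were not tested against each other.

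The Ugt2 genes lie on chromosome 5, as does Clock itself. In the order of tested genes the 8 members are consecutive, the 35th to the 42nd gene from Clock, and Sult1b1, Sult1d1 and Sult1e1 follow directly. Of the 34 tested genes between Clock and the cluster, 8 were called in mutants (23.5%, against 15.4% of all genes), all of them lower (9.02% of all genes were), and their median difference was -0.03. The mutants carry the Clock-D19 allele on this chromosome with whatever lies near it, and effects of linked sequence and of the mutation cannot be told apart in the comparison with wild type.

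**Figure D3:**
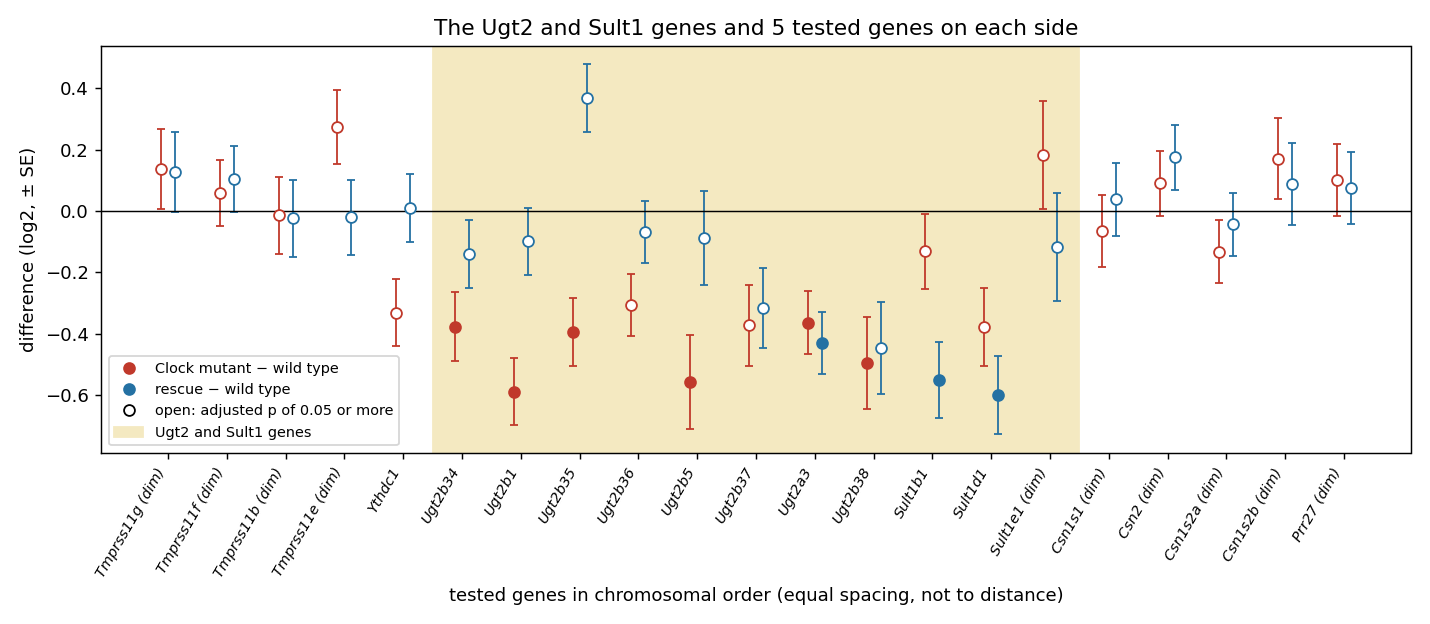
Log2 difference with SE of mutant against wild type (red) and of rescue against wild type (blue) for the Ugt2 and Sult1 genes of chromosome 5, shaded, and 5 tested genes on each side, spaced equally in chromosomal order and not by distance; filled points are called (limma, adjusted p under 0.05). All 8 Ugt2 genes have red points below 0, and in rescue livers the blue point of Ugt2b35 lies above 0, at 0.37, and is open (not called).

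The Ugt3 genes, whose products use other UDP-sugars, had 0 of 2 called by limma in mutants against wild type, with 1 at an unadjusted p under 0.05. Ugt3a2 read 10.44 to 10.75 in mutants and 10.76 to 11.01 in wild type (-0.25 ± 0.11, adjusted p = 0.144), and Ugt3a1 differed by 0.11 (adjusted p = 0.557).

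By limma 0 of the 16 sulphotransferases, 10 of them dim, were called in mutants against wild type, where 15.4% of all genes were; 3 had an unadjusted p under 0.05. The nearest was Sult1d1, an enzyme of catecholamine and eicosanoid sulphation, at 10.71, 10.55 and 10.78 in wild type, 10.18, 10.43 and 10.30 in mutants and 10.32, 9.84 and 10.08 in rescue livers (-0.38 ± 0.13, adjusted p = 0.0595); 8 of 18 alternatives called it. Sult5a1 read 6.04, 6.88 and 6.83 in wild type, 7.14, 7.07 and 7.06 in mutants and 6.54, 6.71 and 6.48 in rescue livers, the mutants being above both other groups (0.50 ± 0.17, adjusted p = 0.0664). Without wild type 1, its lowest animal, that difference was 0.23. The mutant difference of Sult5a1 was called in 3 of 18 alternatives (adjusted p 0.0328 to 0.0485). Sult1a1, the main phenol sulphotransferase of liver, differed by -0.11 (adjusted p = 0.549), and Sult2a8, a hepatic enzyme that sulphates bile acids, by -0.20 ± 0.12 (adjusted p = 0.271).

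Against the Clock mutants, 5 of the 48 genes differed in rescue livers, 10.4% against 3.81% of all genes tested. These were Gsta4, Ugt2b35 and Ugt2b1, which were higher (2.61% of all genes were), and Gstp3 and Gstk1, which were lower (1.2% of all genes). All 5 were also called in mutants against wild type, in the opposite direction; the comparisons share the mutant arrays, so an error in the mutant mean moves both. Ugt2b35 was higher by 0.76 ± 0.11 (adjusted p = 0.00342) and Ugt2b1 by 0.49 ± 0.11 (adjusted p = 0.027). The Ugt2b35 call held under every alternative, while that of Ugt2b1 was lost without any mutant, rescue 2 or rescue 3 (adjusted p 0.0545 to 0.108). The groups did not overlap for 14 members (29.2%, against 25.7% of all genes), and the median difference was -0.03 over the members and -0.05 over all genes.

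The count of 5 was 2 without mutant 1, rescue 2 or rescue 3, where the shares over all genes were 1% to 1.01%, and 3 without mutant 3 (1.71%). With median centring 3 genes were higher and 1 lower. For 7 of the 12 genes called in mutants, the rescue livers were not called against mutants: Gstm4 differed by -0.04, Gstm6 by -0.20, Gstm7 by -0.03, Ugt2a3 by -0.07, Ugt2b34 by 0.24, Ugt2b38 by 0.05 and Ugt2b5 by 0.47. The rescue mean lay between the other means for 10 of the 12, the exceptions being Ugt2b35, above wild type, and Ugt2a3, below the mutants. The 12 genes were selected on these same mutant and wild-type means. The count is therefore a description, without a share over all called genes, and was not tested.

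**Figure D4:**
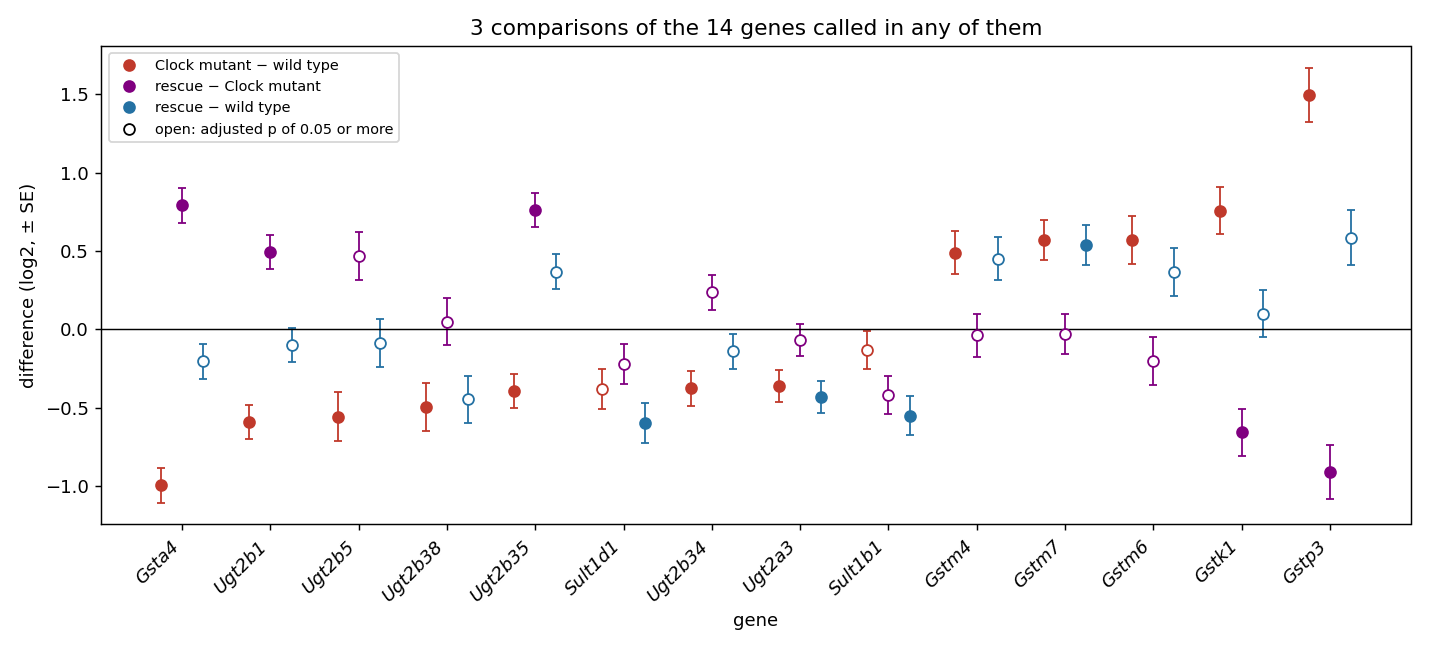
Log2 difference with its SE for the 14 called conjugation genes in each of the 3 comparisons, coloured by comparison; filled points are called (limma, adjusted p under 0.05). Gsta4, Gstp3, Gstk1, Ugt2b1 and Ugt2b35 are filled on both sides of 0 in the first and second comparisons, which share the mutant arrays.

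Rescue livers differed from wild type in 4 of the 48 genes, 8.33% against 2.28% of all genes tested. Gstm7 was higher (0.928% of all genes were), and Sult1d1, Sult1b1 and Ugt2a3 were lower (1.35% of all genes). Gstm7 stood 0.54 ± 0.13 above wild type (adjusted p = 0.0397) and Ugt2a3 0.43 below it (difference -0.43 ± 0.10, adjusted p = 0.0396), both near their mutant difference. Sult1d1 differed from wild type by -0.60 ± 0.13 (adjusted p = 0.0226). Sult1b1, a sulphotransferase of thyroid hormones and phenols, read 7.89, 7.85 and 8.32 in wild type, 7.83, 7.96 and 7.87 in mutants and 7.51, 7.41 and 7.48 in rescue livers, so rescue was below both other groups. Its difference was -0.55 ± 0.12 from wild type (adjusted p = 0.0305) and -0.42 ± 0.12 from mutants (adjusted p = 0.0701), while mutants differed from wild type by -0.13. The groups did not overlap for 10 members (20.8%, against 19.5% of all genes), and the median difference was -0.05 over the members and 0.01 over all genes.

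Each of these 4 calls was lost when any 1 of several arrays was left out. In the fits without the call the differences kept their sign. They were 0.45 to 0.60 for Gstm7, -0.49 to -0.37 for Ugt2a3, -0.57 to -0.40 for Sult1b1 and -0.60 to -0.48 for Sult1d1. Gstm7 was lost without mutant 1, any rescue, wild type 2 or wild type 3, with median centring, with the gene span trend removed and on the 6 arrays of these groups alone (adjusted p 0.0532 to 0.144). Ugt2a3 was lost without mutant 1, mutant 3, any rescue or any wild type, with quantile normalization repeated and on 6 arrays (0.0558 to 0.139). Sult1b1 was lost without any rescue or wild type 3 and on 6 arrays (0.0531 to 0.116), and Sult1d1 without rescue 2, rescue 3, wild type 1 or wild type 3 (0.0816 to 0.101). The count was 0 without rescue 3 or wild type 3, where 1.32% and 1.17% of all genes were called. It was 1 without rescue 1 or rescue 2 and on 6 arrays (1.41%, 1.27% and 1.96% of all genes). It was 2 without mutant 1 or wild type 2 (2.08% and 2.02% of all genes). Without wild type 1 it was again 4 (1.21% of all genes), but with 3 genes higher and 1 lower. With median centring no gene was higher and 3 were lower. An F test across the 3 groups called 11 members, 22.9% against 12.9% of all genes. It called 7 without wild type 2 or wild type 3, where the shares over all genes were 9.94% and 7.83%.

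Genes that supply or regulate conjugation were read from 8 lists. For the counts given for each list, 6.37% of all genes tested rose and 9.02% fell in mutants. Among receptors and NRF2, 1 of 11 measured genes fell in mutants and 0 rose: the oestrogen receptor Esr1, by 0.38 (SE 0.12, adjusted p = 0.0387). The xenobiotic receptors Nr1i2 (PXR), Nr1i3 (CAR) and Ahr differed by 0.13, 0.04 and 0.12, and Nfe2l2, which encodes NRF2, by -0.13, with adjusted p from 0.559 to 0.896. Ppara and Rxra differed by -0.22 and -0.29 and were not called. Of 9 PAR bZIP and clock control genes, 8 fell and 1, Nfil3, a repressor at D-boxes, rose 2.84-fold; Bhlhe41 and Per3 fell by 3.12 and 1.70 on the log2 scale. Dbp fell by 1.09 (SE 0.14, adjusted p = 0.000208), Tef by 0.74 and Hlf by 0.71. In rescue against mutant livers these 3 differed by 0.12, -0.18 and 0.11, with none called, and against wild type by -0.97, -0.92 and -0.60, all called. Of the other 6 genes of the list, 3 were called in rescue against mutant livers, where 3.81% of all genes were. Nfil3 differed by -0.62 (adjusted p = 0.0138), Bhlhe41 by 1.20 (adjusted p = 0.00824) and Nr1d1, which encodes the repressor REV-ERB alpha, by 1.29 (adjusted p = 0.0167).

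In glutathione and mercapturate supply, 1 of 18 measured genes rose and 5 fell. Cbs, which opens the route from homocysteine to cysteine, rose by 1.10 ± 0.18 (adjusted p = 0.00101). Gsr, which regenerates reduced glutathione, fell by 0.40 (SE 0.10, adjusted p = 0.0133) and was higher in rescue than in mutant livers by 0.40 (adjusted p = 0.039). Anpep, an aminopeptidase, fell by 0.45 (SE 0.10, adjusted p = 0.00936). Gclc, the catalytic subunit of the first step of glutathione synthesis, differed by 0.01 in mutants and was higher in rescue livers by 0.52 against mutants (adjusted p = 0.0201) and 0.53 against wild type (adjusted p = 0.0162). In UDP-glucuronate supply, 2 of 8 rose and 2 fell: Ugp2, which makes UDP-glucose, fell by 0.56 (SE 0.12, adjusted p = 0.00551), and Slc35d1, which carries UDP-glucuronic acid into the endoplasmic reticulum, fell by 0.47 (SE 0.11, adjusted p = 0.0093). Pgm1, which converts glucose phosphates, rose by 0.52 ± 0.11 (adjusted p = 0.00518), and Ugdh, which makes UDP-glucuronic acid itself, differed by -0.18 (adjusted p = 0.417).

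In sulphate donor supply and sulphate removal, 2 of 13 rose and 1 fell. The sulphate transporter Slc26a2 fell by 0.83 (SE 0.14, adjusted p = 0.00123), while Suox, which oxidises sulphite, rose by 0.46 (adjusted p = 0.0323) and the tyrosine sulphotransferase Tpst2 by 0.34 (adjusted p = 0.0485). Other conjugating enzymes had 3 of 18 higher and 4 lower: the glycine methyltransferase Gnmt rose by 1.01 ± 0.13 (adjusted p = 0.000242) and the acetyltransferase Nat2 fell by 0.58 (SE 0.10, adjusted p = 0.00192). Both moved the other way in rescue against mutant livers, Gnmt by -0.78 (adjusted p = 0.00839) and Nat2 by 0.40 (adjusted p = 0.0455). Phase I partners had 1 of 15 higher and 2 lower (Por was not analysed here), and conjugate transporters 1 of 13 higher and 2 lower. Among the transporters Abcg2, which exports sulphate and glucuronide conjugates, fell by 0.77 (SE 0.14, adjusted p = 0.00185) and was higher in rescue than in mutant livers by 0.66 (adjusted p = 0.0198).

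**Figure D5:**
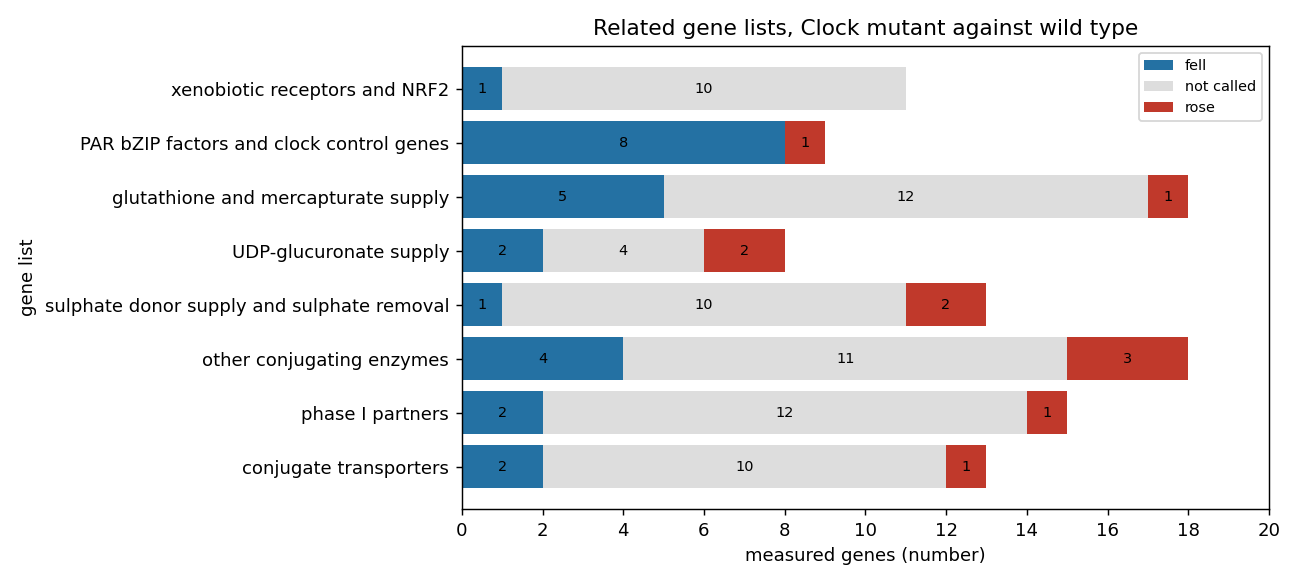
Number of measured genes in each of the 8 related lists that fell (blue), were not called (grey) or rose (red) in Clock mutants against wild type (limma, adjusted p under 0.05). The PAR bZIP and clock control list has 8 of 9 genes lower in mutants, and no other list has more than 5 lower. Of all genes tested, 9.02% fell and 6.37% rose.

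Markers of some other liver cells also differed between the groups. Of all genes tested, 9.02% fell and 6.37% rose in mutants. Of 12 Kupffer cell and macrophage markers 8 fell in mutants, with a mean log2 level of 6.85 to 6.96 on mutant, 7.45 to 7.99 on wild-type and 7.00 to 7.32 on rescue arrays. Of 12 endothelial markers 6 fell, at 7.25 to 7.34, 7.77 to 7.90 and 7.42 to 7.71, and 3 of 12 stellate cell and fibroblast markers fell. Of 8 hepatocyte markers 1 rose, at 11.93 to 12.03 on mutant, 11.66 to 11.87 on wild-type and 11.72 to 11.98 on rescue arrays. In bulk tissue fewer cells of a type and less RNA per cell cannot be told apart. Lymphocyte markers had 1 of 11 lower and exocrine pancreas markers 1 of 4 higher. By limma 0 of 7 bile duct, 0 of 9 neutrophil, 0 of 2 red cell and 0 of 4 adipocyte markers were called in mutants against wild type. There 0, 0, 1 and 1 had an unadjusted p under 0.05. None of the 12 Kupffer cell and 12 endothelial markers was dim, while 5 of 7 bile duct, 9 of 11 lymphocyte and 9 of 9 neutrophil markers were; their part in the conjugation gene differences was not tested.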

How the data were processed

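Liver RNA of 9 mice was hybridised to 1 Affymetrix gene array each. The deposited values are log2 expression per probe set, made by the authors with RMA in Affymetrix Expression Console, per the submitters' processing notes; their versions were not given in the sources used. RMA gives all arrays 1 distribution of probe values, so it can hide shifts shared by most genes and compresses differences of dim ones. The base of the logarithm follows from the range of values, from -0.46 to 13.86.

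The platform annotation gave 1 symbol for 21789 of 35556 probe sets, several for 1621 and none for 12146, and those with 1 symbol were used. Entrez identifiers matched the reference gene table (GRCm38.p6, used for names, order and span) for 21698 of them. The brightest probe set per gene left 19938 genes and no low-level filter was applied.

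All 9 arrays entered 1 limma 3.58.1 model (R 4.3.3, statmod 1.5.0) with group as the term, 6 residual and 8.475 prior degrees of freedom, 3 contrasts and an F test. Benjamini-Hochberg adjustment ran over all genes in each contrast. The fit was tested on simulated data. The p-values set each difference of group means against the spread between animals, pooled over the 3 groups and moderated over all genes. Promoter windows came from RefSeq and were read with Biopython 1.88; tables and figures used pandas 2.3.3 and matplotlib 3.10.9 in Python 3.11.15.

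The genes, the 8 related lists and the 10 marker lists were chosen with earlier results of these data known. By rule the text names every called member with its values, the brightest uncalled member of each family, the dim members, Clock, the main receptors and PAR bZIP factors, and from each list at most 3 genes, those of lowest p. Other members and list genes given with a value were picked for their role or spread after values were seen.

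Alternatives were a replicate block, median centring, quantile normalization repeated, removal of the dimmest 40% of genes, a trended and robust prior, array weights, the mean of a gene's probe sets, removal of a trend with gene span (loess), leaving out each array, and fitting only the 6 arrays compared.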

Additional observations from a re-analysis of the deposited data

How the results depend on the processing

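Of 21 calls of single genes in the 3 comparisons, 7 held under all 18 alternatives: Gsta4 in mutant against wild type and in rescue against mutant, Gstk1, Gstm7, Gstp3 and Ugt2b1 in mutant against wild type, and Ugt2b35 in rescue against mutant. No call changed sign, and 13 uncalled differences were called under at least 1 alternative. Leaving out 1 array at a time gave 5 to 14 called genes in mutant against wild type, 2 to 6 in rescue against mutant, 0 to 4 in rescue against wild type and 7 to 12 in the F test. The shares over all genes in these fits were 8.5% to 15.7%, 1% to 3.47%, 1.17% to 2.51% and 7.83% to 12.3%. The other alternatives gave 12 to 16, 4 to 7, 1 to 4 and 10 to 15. Their shares over all genes were 13.2% to 28.2%, 2.64% to 9.85%, 1.96% to 5.94% and 11.2% to 25.7%. The 1 came from fitting only the 6 arrays of rescue and wild type, and the cause was not tested.

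The median difference over the 48 genes moved to -0.1008 in mutant against wild type and to 0.0283 in rescue against mutant with median centring, which by construction also moves the median of all genes, from 0.07 to -0.0044 and from -0.05 to 0.0075. With single arrays left out it ranged from -0.0798 to 0.0242, from -0.0555 to 0.0236 and, in rescue against wild type, from -0.0549 to -0.0154.

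Replicate numbers recur in the 3 groups. The deviations of same-numbered arrays correlated at -0.1109 to 0.191 over 9 pairs, 4 of them over 0.1, and those of the 18 other pairs at -0.2556 to 0.1786. Among same-numbered arrays the range was 0.07089 to 0.191 for numbers 1 and 2 and -0.1109 to 0.04716 for number 3. The labels do not say that the numbers pair animals, so the main model left them out. An effect shared by number was not tested. With the replicate block 13, 5 and 4 genes were called in the 3 comparisons and 13 in the F test. In mutant against wild type the addition was Ugt2b37, and 16.9% of all genes were called, against 15.4% without the block. With 3 arrays per group, a missed threshold does not show that a gene was unchanged: the uncalled difference of Gstm2 in mutants was 0.62, while the smallest called one, of Ugt2a3, was -0.36.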

Other observations

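Among phase I partners, which oxidise or reduce compounds before conjugation, Alas1, the first enzyme of haem synthesis, fell in mutants by 0.91 on the log2 scale (SE 0.15, adjusted p = 0.00111, limma). It was higher in rescue than in mutant livers by 1.62 ± 0.15 (adjusted p = 0.00014) and stood above wild type by 0.71 ± 0.15 (adjusted p = 0.0207). Cyb5r3, a reductase that feeds electrons to cytochrome b5, rose in mutants by 0.70 ± 0.16 (adjusted p = 0.00847) and differed by -0.07 between rescue and mutant. Fmo1, a flavin monooxygenase, fell by 0.36 (SE 0.09, adjusted p = 0.02). Pemt, which methylates phosphatidylethanolamine, rose in mutants by 0.89 ± 0.18 (adjusted p = 0.00431) and differed by -0.64 ± 0.18 between rescue and mutant (adjusted p = 0.0613). The bile salt export pump Abcb11 rose by 0.36 ± 0.10 (adjusted p = 0.0225) and the organic anion carrier Slco1a1 fell by 0.42 (SE 0.13, adjusted p = 0.0451).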
